A study of Mus musculus with 3 samples.

Results

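The genes described here encode splicing factors and hnRNP proteins, and the measurement is where open chromatin lay at them in cells of the mouse molar. Members were all nuclear protein-coding genes of the RefSeq annotation of GRCm38 whose symbol begins with Snrp, U2af, Sf3a, Sf3b, Prpf, Srsf or Hnrnp, with 1 imprinted gene left out. They number 68 of 21887 genes: 11 Snrp, 3 U2af, 3 Sf3a, 6 Sf3b, 13 Prpf, 11 Srsf and 21 Hnrnp genes, of which Hnrnpa1l2-ps2 carries a pseudogene symbol although RefSeq lists it as protein-coding.

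Cells of C57BL/6 mice at postnatal day 7.5 were profiled by ATAC-seq, where a transposase inserts adapters into accessible DNA. The apical portions of first molars were digested to single cells, and 5000 cells went into each library. There were 2 control libraries from Arid1a fl/fl mice and 1 mutant library from Gli1-CreER;Arid1a fl/fl mice. All mice carried the floxed alleles of Arid1a, which encodes a subunit of SWI/SNF chromatin remodellers, and tamoxifen, which switches CreER on, was injected on postnatal day 3.5 at 1.5 mg per 10 g of body weight, per the labels. Gli1-CreER acts in cells that express Gli1 when tamoxifen is present, and the deletion passes to their descendants, so a library of molar cells can also hold cells with the gene intact. The values below come from 1 list of 13500 windows of 201 bp (mm10) pooled over the 3 libraries. GC content, CpG content and motif sites are listed for each window. The list holds no value per library, so mutant and control could not be compared, the read depth is unknown, and no value has a replicate error. As a check on the tissue, windows within 1 kb of a gene end were found at 4 of 10 dental mesenchyme and 3 of 8 odontoblast markers (not at Dspp or Dmp1, the defining odontoblast genes). They were found at 1 of 8 dental epithelium, 1 of 6 immune and 2 of 5 endothelial markers. Over all protein-coding genes the share was 46.6%, so these counts do not single out the labelled tissue.

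Introns are removed from pre-mRNA by the spliceosome, which assembles from small nuclear ribonucleoproteins (snRNPs). Most snRNPs consist of a small RNA bound by a ring of Sm proteins and by particle-specific proteins. U2AF marks the 3′ splice site, SF3a and SF3b anchor the U2 snRNP at the branch point, and the Prp factors bring in the U4/U6.U5 particle and drive the catalytic steps. SR proteins bind exonic enhancers and mostly promote exon inclusion, whereas hnRNP proteins coat nascent RNA and often act against it. Most of these genes are active in every cell type, and several SR and hnRNP genes make further transcripts from alternative starts or through exons that send the transcript to decay.

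The sites searched in the windows were those of the motif of Plagl1 (Zac1), a zinc finger transcription factor named in the series title. A site is a match of 10 bases scored by the authors' program, and not a measurement of binding. The members' gene-end windows held 21 sites of 18 different sequences. Of them 20 are shown, because the rest of the account refers to them. Each is read on the strand that matches the motif, so minus-strand sites are turned from the deposited plus-strand letters. Positions 4 to 7 are in capitals. Position 5, which is A or G in these sites, falls in that stretch. The first lines give Snrp and U2af genes, then Sf3b and Prpf genes, then Srsf and Hnrnp genes.
Snrpb (chr2:130179280-130179289, plus strand): acaGAGGcct
Snrpc (chr17:27840015-27840024, plus strand): tcaGAGGcac
Snrpe (chr1:133610127-133610136, minus strand): tttGGGGgcc
Snrpf (chr10:93589486-93589495, minus strand): cgcGGGGccc
U2af1l4 (chr7:30563244-30563253, minus strand): ttaGAGGcca
Sf3b1 (chr1:55027279-55027288, plus strand): agaGAGGgcc
Sf3b2 (chr19:5273094-5273103, plus strand): cgcGAGGccc
Prpf3 (chr3:95855731-95855740, plus strand): cgcGGGGcca
Prpf38a (chr4:108579317-108579326, plus strand): agaGAGGgcc
Prpf38b (chr3:108911480-108911489, plus strand): aggGAGGcca
Prpf4b, window upstream (chr13:34874364-34874373, plus strand): tggGAGGgcc
Prpf4b, window downstream (chr13:34875725-34875734, minus strand): ctgGAGGccc
Srsf4 (chr4:131873926-131873935, plus strand): tagGAGGccg
Srsf9 (chr5:115326989-115326998, plus strand): tagGAGGcgc
Hnrnpa0, outer site (chr13:58128790-58128799, plus strand): cgcGGGGccc
Hnrnpa0, inner site (chr13:58128722-58128731, plus strand): cctGGGGctc
Hnrnpl, first site (chr7:28809068-28809077, plus strand): tgaGGGGcat
Hnrnpl, second site (chr7:28809229-28809238, plus strand): tggGAGGgcc
Hnrnpll (chr17:80062023-80062032, minus strand): tctGAGGccc
Hnrnpul2 (chr19:8819869-8819878, plus strand): tacGAGGcac

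The core spliceosome genes all had an open chromatin window within 1 kb of a gene end. That was so for 11 of 11 Snrp, 3 of 3 U2af, 3 of 3 Sf3a, 6 of 6 Sf3b and 13 of 13 Prpf genes. Among the regulators, 9 of 11 Srsf and 16 of 21 Hnrnp genes had one. In all, 61 of 68 members (89.7%, exact Clopper-Pearson 95% interval 79.9 to 95.8, which covers counting error only) had such a window, where 46.6% of all protein-coding genes did. When any window in the gene or within 1 kb of it was counted, 66 of 68 members had one, against 53.5% of all genes. By that rule 10 of 11 Srsf and 20 of 21 Hnrnp genes had one, so the lower counts of these groups depended mostly on the gene-end rule. The 61 genes had 64 windows, with a median of 145 bp between window midpoint and gene end, beside 143 bp over all genes. Members were not compared with other genes by a test, because they are neither samples nor independent of each other.

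**Figure D1:**
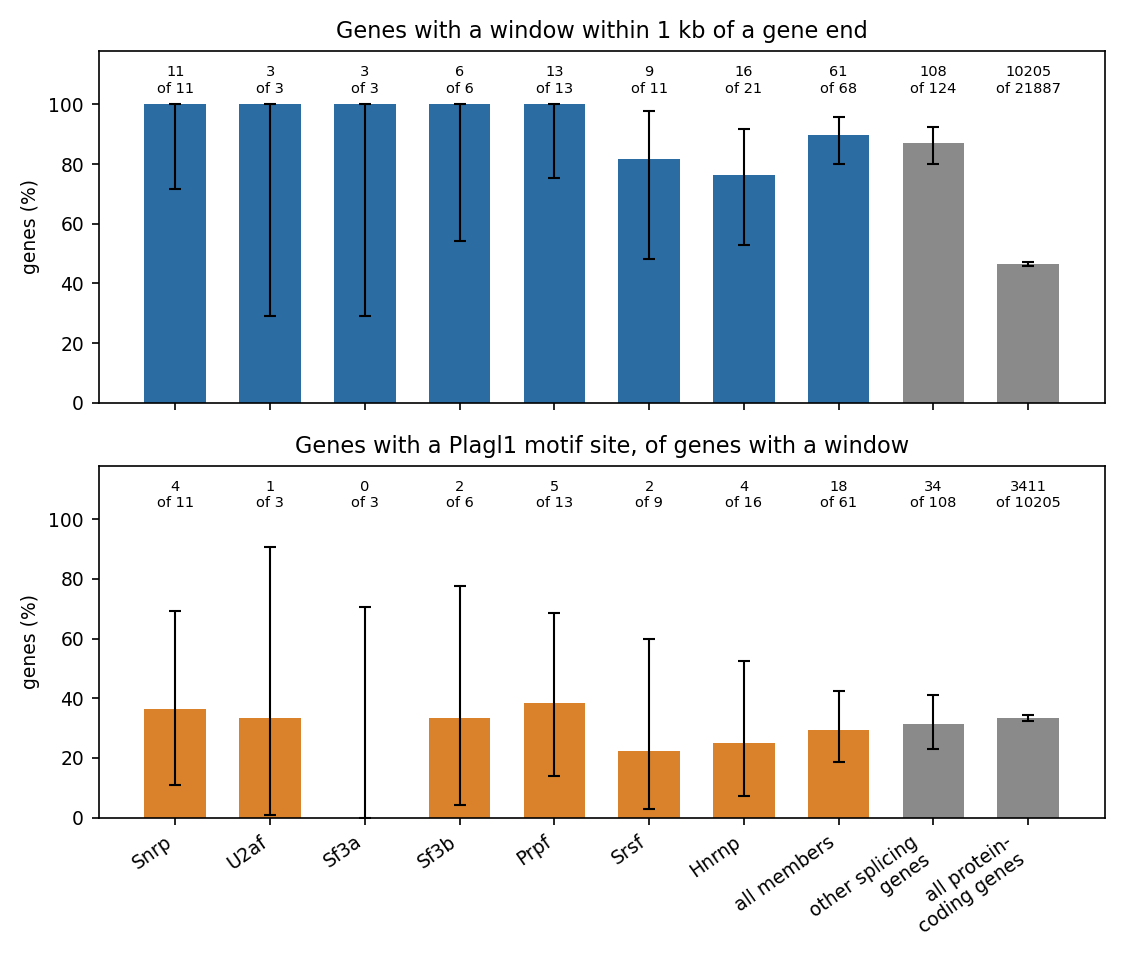
Share of genes (%) with a window within 1 kb of a gene end (top) and, of those, with a Plagl1 motif site in it (bottom), by symbol group, with counts above the bars. Bars start at 0, and lines are exact 95% Clopper-Pearson intervals. Windows were at 61 of 68 members and 10205 of 21887 genes, and sites at 18 of 61 and 3411 of 10205.

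Of the 7 members without a window at a gene end, 5 had one further inside the gene, within 1 kb of an annotated start. Hnrnpk, which encodes a poly-C binding hnRNP, had its window 1041 bp inside the gene and 185 bp upstream of a RefSeq start. Hnrnph1, whose protein binds G-rich RNA, had its window 2516 bp from the nearest gene end, but 24 bp from 1 of its 5 RefSeq starts. Hnrnpf, a close relative of Hnrnph1, had 2 windows. The first lay 423 bp downstream of the second of its 4 starts, the other 44 bp downstream of the last, and none lay within 1 kb of the outermost start, which was 6865 bp from the nearer window. The window of Srsf1, the prototype SR protein gene, was centred 539 bp downstream of its start. That of Hnrnpu, which encodes a scaffold attachment protein, was 618 bp downstream. In each of these 5 genes, then, the window lay within 1 kb of a start that is not the outer end of the annotated gene.

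Srsf12, an SR protein gene, and Hnrnpa1l2-ps2 were the members without any window. The sources used here do not say how regions entered the list, so a missing window does not show closed chromatin. With distances taken to the starts in the RefSeq promoter table, which holds 59 members, 57 (96.6%) had a window within 1 kb, against 50.7% of the protein-coding genes in that table. The table holds no entry for the other 9 members, among them U2af2, Sf3b4 and Hnrnpll.

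Windows inside the gene and over 1 kb from its ends were found in 2 Srsf and 6 Hnrnp genes, and in no Snrp, U2af, Sf3a, Sf3b or Prpf gene. Of the genes in the promoter table, 8 of 59 members had one, beside 1970 of all 17492 protein-coding genes. Having such a window was thus not particular to the members. The members had 9 such windows, and all 9 lay within 1 kb of a RefSeq start of the gene, where 52.3% of all such pairs of gene and window did. Beside the 5 genes above they were in Srsf11, Hnrnpl and Hnrnpul1. Srsf11 had a window at each of its 2 starts, 13 bp upstream of the outer one and 90 bp downstream of the inner one, which lies 4919 bp inside the gene. Hnrnpl, whose protein binds CA-rich RNA, had 1 window 12 bp upstream of its RefSeq start and another at -1725 bp from that start, near the outer end of the gene. Hnrnpul1 showed the same arrangement, with windows 250 and 1462 bp upstream of its start.

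**Figure D2:**
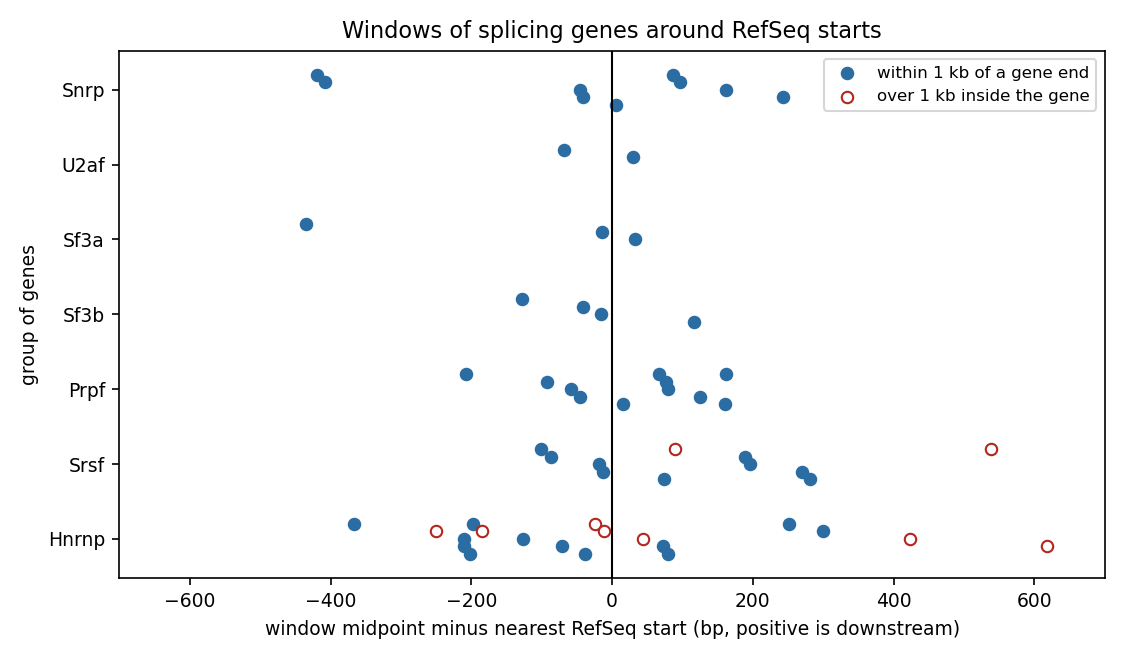
Distance in bp from the nearest RefSeq start to the midpoint of each member's window, by symbol group; positive values are downstream. Filled points are windows within 1 kb of a gene end, open points lie further inside the gene, and windows over 1 kb from a start are not drawn. Open points occur in the Srsf and Hnrnp groups, the farthest at 618 bp (Hnrnpu).

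Around the starts, the members' windows were spread to both sides. Of 50 gene-end windows within 1 kb of a RefSeq start, 24 had their midpoint downstream, with a median offset of -13.5 bp, and over all protein-coding genes 59.6% lay downstream with a median of 40 bp. In 26 of the 50 (52%) the start lay within 100 bp of the midpoint, close to the 47.7% over all protein-coding genes. By group the median ran from -99 bp in Hnrnp genes, of which 4 of 12 were downstream, to 74 bp in Srsf genes, of which 5 of 9 were. Among these the Hnrnp windows farthest upstream belonged to Hnrnpa1 (367 bp), Hnrnpa2b1 and Hnrnpa0 (211 bp each) and Hnrnpc (202 bp), and the farthest downstream to Hnrnpab (300 bp). At the 1 kb limit of the window rule, U2af2 (899 bp), Prpf4b (834 bp) and Sf3b2 (819 bp) were just inside, and Hnrnpk (1041 bp), the second window of Hnrnpul1 (1259 bp) and Srsf1 (1413 bp) were just outside.

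Prpf4b, Sf3b2 and U2af2 had more than 1 window at their ends, 3 of 61 members beside 3.61% of all genes with a window. Prpf4b, the gene of a splicing kinase, had them 1237 bp upstream and 125 bp downstream of its start. The branch point factor gene Sf3b2 had 1 window 16 bp upstream of its start and 1 beyond its other end, 5 bp from the start of the neighbouring gene Pacs1. U2af2, the large U2AF subunit that reads the polypyrimidine tract, likewise had a window 341 bp beyond 1 end that was centred 37 bp from the start of Epn1.

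Many members shared their window with another protein-coding gene. A gene-end window that was also within 1 kb of an end of another gene was found in 27 of 61 members (44.3%), against 27.8% of all genes with a window. By group, the count was 11 of 16 for Hnrnp, 3 of 11 for Snrp, 3 of 13 for Prpf, 3 of 9 for Srsf, 3 of 6 for Sf3b, 2 of 3 for Sf3a and 2 of 3 for U2af genes. The other splicing genes described further below stood at 30 of 108.

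For 16 members (26.2%) the shared window lay within 1 kb of starts on both strands, an arrangement found in 14.3% of all genes with a window. The A-type hnRNP genes Hnrnpa1 and Hnrnpa2b1 were each paired in this way with a gene for a heterochromatin protein 1. Hnrnpa1 was paired with Cbx5, with 545 bp between their starts, and Hnrnpa2b1 with Cbx3, with 722 bp between them. Hnrnph2 was paired with Gla, which encodes a lysosomal galactosidase (174 bp between starts), Hnrnph3 with Pbld2 (663 bp), Hnrnpdl with Enoph1 (772 bp) and Hnrnpd with 4930524J08Rik (3 bp). Hnrnpk, outside the gene-end rule, shared its window with Rmi1, a DNA repair gene, with 131 bp between starts.

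Outside the Hnrnp group the closest pair of starts was that of Prpf31 and Tfpt, 56 bp apart, followed by Sf3a1 and Ccdc157 (61 bp), Srsf11 and Lrrc40 (76 bp), Sf3a2 and Plekhj1 (109 bp) and U2af1l4 and Psenen (136 bp). Prpf4 and Cdc26, a subunit of the anaphase-promoting complex, had starts 158 bp apart. The distance was 221 bp for Sf3b3 and Cog4, 490 bp for Snrpa and BC024978, 661 bp for Snrpd3 and Gucd1, and 668 bp for Srsf2 and Mfsd11. Further members with a shared window were Sf3b2 (with Pacs1), Sf3b4 (Mtmr11), Srsf7 (Gemin6, a gene of the complex that assembles Sm rings), Snrpd2 (Qpctl), U2af2 (Ccdc106 and Epn1), Hnrnpc (Rpgrip1), Hnrnpll (4933407O12Rik), Hnrnpm (Marchf2), Hnrnpul1 (Axl) and Hnrnpul2 (Ttc9c). In these either 1 start was not in the promoter table, or the starts did not both lie within 1 kb on opposite strands. A pooled window cannot say which of 2 neighbouring genes its accessibility belongs to.

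The members' windows were somewhat less rich in G and C than gene-end windows in general. Their median GC content was 64.9%, from 44.3 to 80.1%, and 42 of 64 windows lay below the median of all 9078 gene-end windows, 68.2%. CpG dinucleotides did not follow that shift. Their median was 10.5 per 100 steps between neighbouring bases, beside 10 over all gene-end windows. Windows under 60% GC held a median of 7.75 CpG per 100 steps in members and 5 in all gene-end windows. The medians were 10 and 8.5 from 60 to 70% GC, and 13 in both at 70% and above. Among shared windows of members the median GC content was 63.2%, and among unshared ones 66.7%, beside 65.7% and 68.7% over all gene-end windows.

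**Figure D3:**
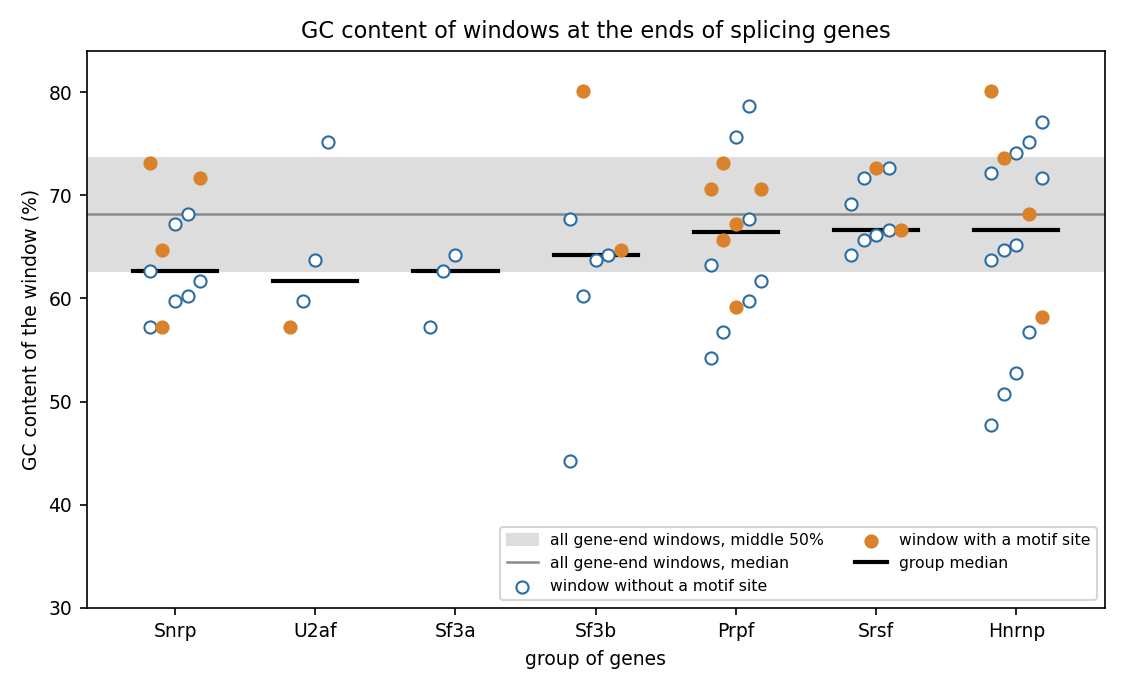
GC content (%) of each member's gene-end window by symbol group; filled points hold a Plagl1 motif site, open points do not, and black bars are group medians. The grey line and band are the median (68.2%) and middle 50% of all gene-end windows. Snrp, Sf3a and U2af medians lie at or just below the lower edge of the band, and Hnrnp genes span 47.8 to 80.1%.

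By role, median GC content was 62.7% in Snrp, 61.7% in U2af, 62.7% in Sf3a and 64.2% in Sf3b genes, and 66.4% in Prpf, 66.7% in Srsf and 66.7% in Hnrnp genes. In the Snrp group it ran from 57.2% at Snrpc and Snrpd2, the genes of a U1 protein and of an Sm protein, to 73.1% at Snrpf, another Sm protein gene. CpG there ran from 4.50 per 100 steps at Snrpd3 to 15.0 at Snrpf. The 3 Sf3a genes spanned 57.2% (Sf3a3) to 64.2% (Sf3a1), with CpG from 8 to 11 at the same genes, and the U2af windows 57.2% (U2af1l4) to 75.1% (the window of U2af2 next to Epn1), with CpG from 8 (the other window of U2af2) to 15.0. Sf3b3 had the lowest GC content of any member, 44.3%, and 0.529% of all gene-end windows lay below it. Its CpG content was also the lowest of the Sf3b group, at 7. The highest in that group was the window of Sf3b2 next to Pacs1, with 80.1% and 17.5 CpG.

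The Prpf windows ran from 54.2% at Prpf31, a factor of the U4/U6.U5 particle, to 78.6% at Prpf40b, which encodes a U1-associated protein. Their CpG content was lowest at Prpf18, a factor of the second catalytic step (4.50), and highest at Prpf38b (13.0). Srsf windows had GC content from 64.2% (Srsf11) to 72.6% (Srsf4 and Srsf7), and CpG from 9 (Srsf11) to 13.5 (Srsf7). The middle 50% of Hnrnp windows spanned 57.8 to 73.8% GC, against 66.2 to 71.6% for Srsf windows. Hnrnpc, the gene of a core hnRNP particle protein, stood at 47.8% GC, Hnrnph2 at 50.7% and Hnrnpul1 at 52.7%, and Hnrnpul1 had the lowest CpG content of all members, 4. At the other end Hnrnpa0 reached 80.1% GC and 17.5 CpG, and Hnrnpab 77.1% and 16.5. Windows of close relatives could lie far apart: Hnrnpa1 stood at 56.7% against 80.1% for Hnrnpa0, and Hnrnph2 at 50.7% against 74.1% for Hnrnph3. The windows of Hnrnpa1, Hnrnph2 and Hnrnph3 were shared with a neighbouring gene, and that of Hnrnpa0 was not. The 3 Hnrnp windows lowest in GC were all shared with a neighbouring gene, but so were 11 of the 16 Hnrnp windows as a group. Shared windows rich in GC were among them, such as that of Hnrnpd at 75.1%.

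**Figure D4:**
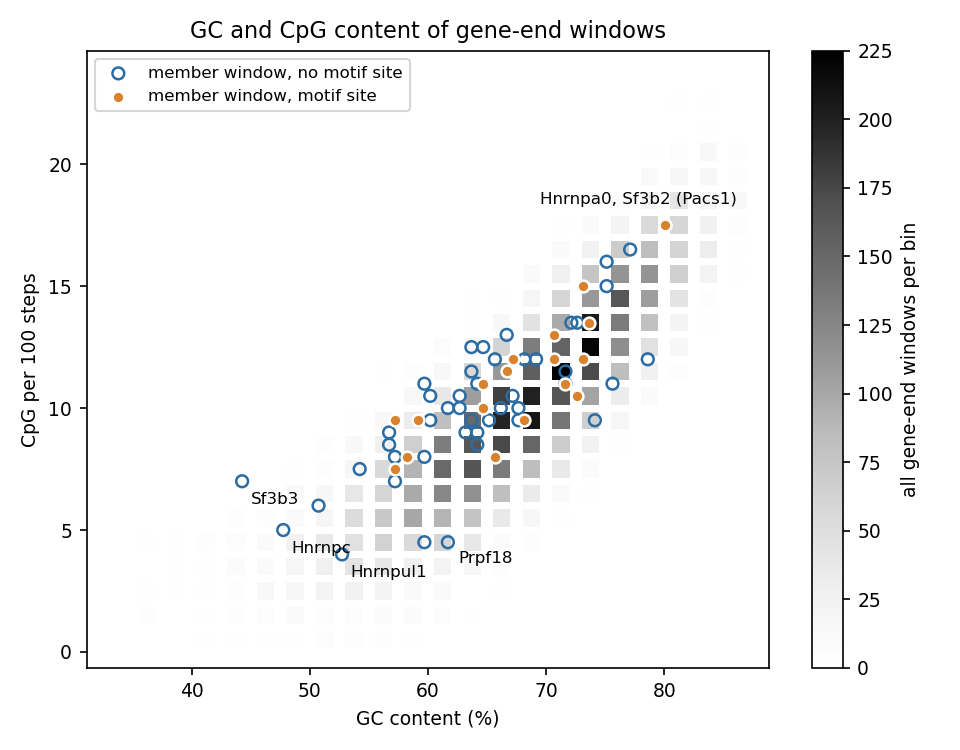
CpG per 100 steps against GC content (%) of the members' gene-end windows, over the number of all gene-end windows per bin in grey. Filled points hold a Plagl1 motif site. Sf3b3 (44.3% GC, 7 CpG) and Hnrnpul1 (52.7%, 4) lie at the lower left, and Hnrnpa0 and the Pacs1 side of Sf3b2 coincide at 80.1% and 17.5.

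Sites of the Plagl1 motif were about as frequent at members as elsewhere. Of the 61 members with a window, 18 had a site in it (29.5%, exact 95% interval 18.5 to 42.6), where 33.4% of all genes with a window did. The counts were 4 of 11 for Snrp, 1 of 3 for U2af, 0 of 3 for Sf3a, 2 of 6 for Sf3b, 5 of 13 for Prpf, 2 of 9 for Srsf and 4 of 16 for Hnrnp genes, and with so few genes the intervals of all groups overlap. A share near that of all genes is no result about the members. Member windows with a site had a median GC content of 68.2% and those without 64.2%, beside 69.2% and 67.7% over all gene-end windows. Of 19 member windows at or above 70% GC, 9 held a site (47.4%, beside 35.7% of all gene-end windows). From 60 to 70% it was 6 of 29 (20.7% beside 33%), and under 60% 4 of 16 (25% beside 24.4%). Sites were in 5 of 28 shared and in 14 of 36 unshared member windows, while over all gene-end windows the shares were 32.3% and 32.9%.

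The sites at members had a lower median score than sites at gene ends in general. The score is a log-odds match to the motif, and it ran from 5.51 to 7.74 over all 5753 sites, with a median of 5.94. The 21 sites of members had a median of 5.70, beside 5.93 over all gene-end windows, and 6 of them reached 5.94, beside 49.5% of sites in all gene-end windows. With scores from 5.94 up alone, 6 of 61 members had a site, against 18.5% of genes with a window. The best of them was in Hnrnpll, the gene of a splicing regulator known from lymphocytes, with a score of 6.71 at chromosome 17, 80062023 to 80062032. Others were Srsf4 (6.05), Snrpf (6.01), the outer site of Hnrnpa0 (6.01) and Prpf38b (5.98). Sf3b2 followed at 5.93, on the side of Pacs1.

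The lower-scoring sites were at Hnrnpul2 (5.86), U2af1l4 (5.81), Prpf4b (5.79 and 5.63), Prpf38a and Sf3b1 (5.70 each), Snrpb (5.70), Hnrnpl (5.67 and 5.63), Snrpc (5.65), Srsf9 (5.65), Hnrnpa0 (5.63, inner site), Snrpe (5.57) and Prpf3 (5.54). In sequence, 15 of the 21 had A at position 5 (71.4%), with position 1 the leftmost base as printed above, beside 43.2% of sites at all gene ends. The stretch GGCC at positions 6 to 9 was in 11 (52.4%, beside 62.1%). The sequences found at more than 1 member were agaGAGGgcc at Prpf38a and Sf3b1 (13 sites in all windows), tggGAGGgcc at Hnrnpl and Prpf4b (24), and cgcGGGGccc at Hnrnpa0 and Snrpf (107). Where the strand of the gene was known, 8 sites lay on the strand of the transcript and 9 on the other. Outside the gene-end windows, Srsf11 held a site of score 6.02 at its inner start and Hnrnpf 1 of score 5.68.

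Where the site lay in sequence upstream of a gene it is shown in place, for 3 members that differ in composition, picked after their sequences had been seen. The stretches are from the RefSeq promoter table (GRCm38.p6), 5′ to 3′ on the strand of the gene, and hold the bases before the start that belong to no protein-coding gene. Capitals mark the deposited sites. Hnrnpa0 (chr13:58128557-58128806, minus strand) holds both of its sites on the strand opposite to the gene, in sequence with 81.2% GC. Srsf9 (chr5:115326927-115327162, plus strand) and Snrpc (chr17:27839837-27840027, plus strand) hold 1 each, at 66.1% and 44.5% GC. All 8 sites that lay within a member's promoter in the table had the same bases there as in the deposited files.
Hnrnpa0: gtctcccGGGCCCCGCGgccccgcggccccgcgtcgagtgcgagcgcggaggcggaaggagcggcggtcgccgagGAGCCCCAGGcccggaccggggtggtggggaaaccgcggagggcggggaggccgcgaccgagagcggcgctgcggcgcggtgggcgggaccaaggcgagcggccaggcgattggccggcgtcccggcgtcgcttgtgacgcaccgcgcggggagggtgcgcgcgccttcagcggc
Srsf9: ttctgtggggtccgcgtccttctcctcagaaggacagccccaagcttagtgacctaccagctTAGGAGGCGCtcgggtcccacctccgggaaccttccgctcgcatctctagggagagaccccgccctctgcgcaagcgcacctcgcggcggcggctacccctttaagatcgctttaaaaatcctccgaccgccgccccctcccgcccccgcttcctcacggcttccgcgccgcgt
Snrpc: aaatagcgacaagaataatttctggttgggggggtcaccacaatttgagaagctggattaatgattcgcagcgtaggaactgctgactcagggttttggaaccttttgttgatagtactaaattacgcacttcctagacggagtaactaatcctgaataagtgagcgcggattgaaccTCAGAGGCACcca

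The members' promoters were also searched for 9 motifs of general promoter factors, on both strands, in the 300 bases of each table entry. For the GC box, which Sp factors bind, the letters were GGGCGG. The CCAAT box, which NF-Y binds, was searched by those letters. ETS factors were searched as CCGGAAG, Nrf1 as GCGCATGC, Yy1 as AAGATGGC and Zbtb33 as TCTCGCGA. The TATA box was searched as TATAAA, the E-box as CACGTG and the cyclic AMP response element (CRE) as TGACGTCA. A match is a run of letters and not a binding site. The ETS letters were in 20 of 59 members (33.9%), beside 12.9% of all protein-coding genes and 21.7% of those with a gene-end window. By promoter these shares were 32.5% of 77, 11.6% of 21263 and 19.2% of 10201. They were in 4 of 9 Snrp, 3 of 3 Sf3a, 3 of 4 Sf3b, 4 of 11 Prpf and 4 of 11 Srsf genes, in 0 of 2 U2af genes and in 2 of 19 Hnrnp genes (Hnrnpd and Hnrnpf). The CCAAT letters were in 14 of 19 Hnrnp genes, in 6 of 11 Prpf, 2 of 4 Sf3b and 1 of 2 U2af genes, and in 3 of 9 Snrp, 4 of 11 Srsf and 0 of 3 Sf3a genes. In all, 50.8% of members had them, beside 43.8% of genes with a window (39.4% of their promoters, and 38.2% of all promoters).

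The GC box letters were in 10 of 11 Srsf, 14 of 19 Hnrnp and 6 of 11 Prpf genes. They were also in 5 of 9 Snrp, 2 of 4 Sf3b, 2 of 3 Sf3a and 1 of 2 U2af genes. In all, 40 of 59 members had them (67.8%, beside 72.4% of genes with a window, 49.2% of all genes and 46.2% of all promoters). The Zbtb33 letters were in 4 members (Hnrnph3, Snrpg, Srsf10 and Srsf4; 6.78%, beside 2.75% and 1.59% of genes and 1.41% of all promoters). TATA letters were in 7 (11.9%, beside 7.72% and 14.8%; 12.6% of all promoters), among them Srsf2 and Srsf3, SR genes known to limit their own mRNA. E-box letters were in 9 members (15.3%, beside 11.7% of genes with a window and 8.91% of all genes). Nrf1 letters were in 4 (6.78%, beside 6.55% and 3.94%) and Yy1 letters in 3 (5.08%, beside 5.62% and 3.57%). CRE letters were in Snrpa and Snrpg (3.39%, beside 3.91% and 2.54%). By promoter, the shares for these 4 motifs over all protein-coding genes were 7.84%, 3.52%, 3.05% and 2.23%. For Nrf1, Yy1 and CRE the members' shares thus lay near those of genes with a window. Genes with several table entries have more chances to hold a motif, and the GC content of the promoters was not matched.

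**Figure D5:**
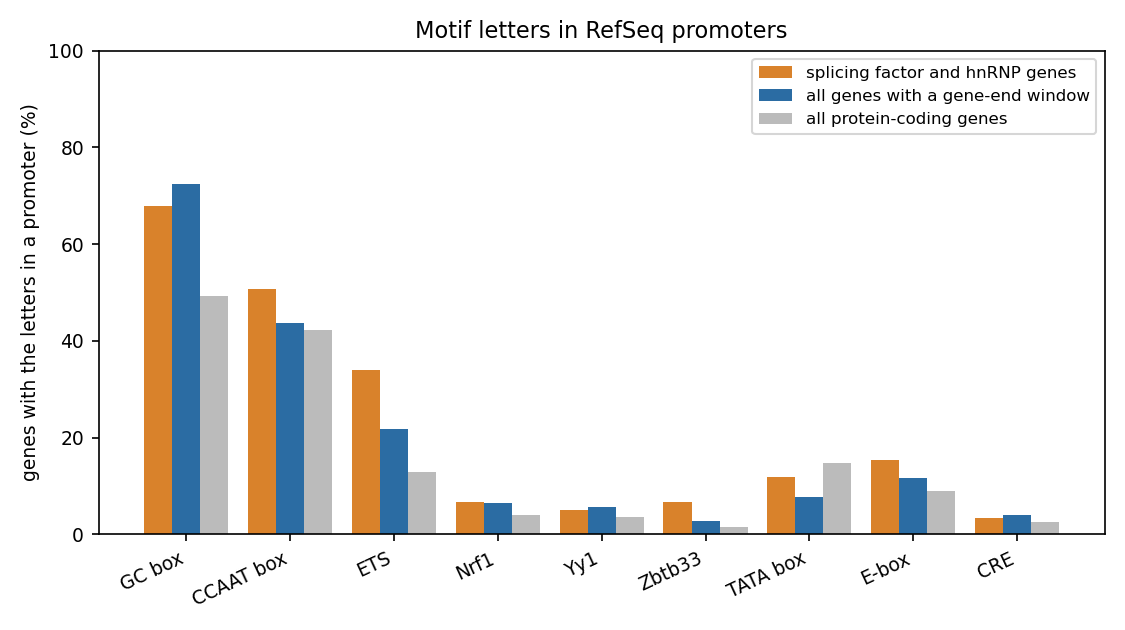
Share of genes (%) with each set of motif letters in at least 1 RefSeq promoter of 300 bases, for the 59 members in the table, for all genes with a gene-end window and for all protein-coding genes. The bars start at 0. ETS letters stand at 33.9, 21.7 and 12.9%, and GC box letters at 67.8, 72.4 and 49.2%.

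Sequence upstream of 3 members with a window at the start shows these letters in place, from the same source and in the same orientation, with the motif letters in capitals. The 3 were picked after their letters had been seen. Snrpg, an Sm ring gene (chr6:86371290-86371539, plus strand), holds from left to right the ETS, Zbtb33, CCAAT and CRE letters, which begin 145, 99, 66 and 49 bases before the start, with the Zbtb33 and CCAAT letters on the opposite strand. Srsf3 (chr17:29032410-29032659, plus strand) holds the CCAAT letters on the opposite strand 58 bases and the TATA letters 18 bases before the start. Hnrnph2 (chrX:134601006-134601178, plus strand) is cut where the gene Gla begins, and the stretch is nearly all of the sequence between the starts of both genes, which share 1 window. It holds the CCAAT letters on both strands and a GC box on the opposite strand in sequence of 48.0% GC.
Snrpg: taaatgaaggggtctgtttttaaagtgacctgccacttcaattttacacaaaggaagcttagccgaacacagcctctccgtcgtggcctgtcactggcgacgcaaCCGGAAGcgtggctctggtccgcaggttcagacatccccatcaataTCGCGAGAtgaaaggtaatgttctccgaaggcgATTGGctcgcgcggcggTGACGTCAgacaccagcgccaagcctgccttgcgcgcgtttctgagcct
Srsf3: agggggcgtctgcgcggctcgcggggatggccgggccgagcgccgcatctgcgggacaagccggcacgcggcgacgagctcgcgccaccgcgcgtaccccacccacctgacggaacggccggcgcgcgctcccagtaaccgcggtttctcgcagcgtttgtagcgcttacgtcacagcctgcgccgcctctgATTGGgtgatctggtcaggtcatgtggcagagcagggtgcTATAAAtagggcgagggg
Hnrnph2: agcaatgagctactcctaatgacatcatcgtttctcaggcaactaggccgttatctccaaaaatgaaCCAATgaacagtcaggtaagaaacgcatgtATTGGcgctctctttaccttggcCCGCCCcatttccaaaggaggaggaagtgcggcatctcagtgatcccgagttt

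Splicing genes outside these symbol groups were listed by role for comparison, and 108 of 124 (87.1%) had a window at a gene end. These lists were chosen with earlier results of these data known, so they give no independent check of the members. In the core lists, 16 of 16 genes of the U1, U11/U12 and tri-snRNP particles had a window at an end. So did 14 of 14 U2 and branch point genes and 25 of 25 genes of the Prp19 complex and catalytic steps. Of the Lsm genes 12 of 13 had one (not Lsm12), and of the exon junction genes 8 of 9 (not Magohb). SR-related genes and SR kinases had one in 14 of 16 cases, not in Srrm2 and Srpk2. The list of hnRNP-like and tissue regulators had one in 19 of 31. Its 12 genes without a window at an end were Ptbp2, Khdrbs1, Mbnl1, Mbnl3, Celf2, Nova2, Elavl2, Rbfox1, Rbfox2, Rbfox3, Esrp1 and Esrp2. Relatives of several of these, Ptbp1, Ptbp3, Khdrbs2, Khdrbs3, Mbnl2, Celf1, Nova1 and Elavl1, were among the genes with one. Ptbp2, Khdrbs1, Mbnl1, Nova2, Elavl2 and Rbfox2 had a window inside the gene, and so did Lsm12, Srrm2 and Srpk2. Counted in the gene or within 1 kb of it, 117 of the 124 other splicing genes had a window, against 53.5% of all genes.

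In these other genes 34 of the 108 with a window (31.5%) held a Plagl1 site, with a median best score per window of 6.01, beside 5.79 at the members and 5.99 over all gene-end windows. Sites scoring above any of the members were among them. Rbm10, a regulator of alternative splicing on the X chromosome, held taaGAGGccc with a score of 7.48. The exon junction gene Rnps1 scored 7.20 with tgtGAGGccc, Txnl4a of the tri-snRNP 7.15, the SR kinase Srpk1 6.995 with catGAGGcct and Bcas2 of the Prp19 complex 6.93 with tatGAGGcac. The best sites of the Lsm list (Lsm14b, 6.46) and of the hnRNP-like list (Pcbp2, 5.60) were lower. The highest-scoring site of a member, that of Hnrnpll, ranked 543 among all 5753 sites.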

How the data were processed

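The submitters' processing notes name Bowtie2 (2.3.5), MACS2 (2.1.1), cutadapt (1.18), bedtools, Picard, edgeR and FastQC (0.11.8), with genome mm10. Per the file headers, the authors ran HOMER's annotatePeaks on a union list of peaks with the Zac1 (Plagl1) motif. The deposited GC content is a fraction, here turned into percent, and CpG content is given per 100 steps. The score deposited for a site is a log-odds match whose log base is not stated. Depth per library is unknown.

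A window belonged to a gene when its midpoint lay within 1 kb of either gene end (RefSeq, GRCm38.p6), and neighbouring genes can share one. Starts came from the RefSeq promoter table. The assignment script was tested on simulated data. Shares carry exact 95% Clopper-Pearson intervals; no test was run. Named were members without a window, with more than 1, with a site, with a shared window, or at a group's extremes, and of other lists genes without a window and best sites. Members and lists were chosen with earlier results of these data known. Python 3.11.15, numpy 2.4.6, pandas 2.3.3, scipy 1.17.1 and matplotlib 3.10.9 were used. The values of 1 member are not reported here by name, and it is kept in the counts.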

Additional observations from a re-analysis of the deposited data

How the results depend on the processing

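The number of members with a window ran from 57 (within 0.5 kb of an end, or by RefSeq starts alone) to 66 (anywhere in the gene), with 65 at 3 kb. The share of all protein-coding genes was 42.7% at 0.5 kb and 51.6% at 3 kb. The number of members with a motif site was 14 to 20 over these rules, and 6 when sites below the median score were left out, because fewer sites are then counted. Of 28 alternative values for the counts, medians and shared windows of all members, 27 stayed within 1.5 times the count or within the counting interval or spread of the median. Over single groups 61 of 64 counts did, and the 3 that did not were counts of at most 4 genes. These bounds are a weak check. Groups in which every gene had a window could not rise, and the 0.5, 1 and 3 kb rules count nested sets of windows. The choice of pooled windows by the authors and the unknown depth limit every count of genes without a window. No paired analysis was possible because the files hold no value per library, and leaving out a library was likewise not possible.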
